A study of Mus musculus with 6 samples.

Results

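The arrays described here are the 3 of the series' 6 that were hybridised with RNA from BMEL cells carrying a control mimic. BMEL cells are an immortalized line of mouse hepatoblasts, and these came from the livers of wild-type CD1 mouse embryos at E12.5. Cells were seeded at 50000 per well on collagen-coated 24-well plates, and the control wells received 500 ng of miRIDIAN Mimic Negative Control #1 by lipid transfection. RNA was taken 48 h later, and 6 ug of it was turned into biotinylated cRNA for Affymetrix arrays. The other 3 arrays hold cells of the same line that were given a mimic of mmu-miR-337-3p in the same way. Untransfected cells and liver tissue were not analysed here, so every control mimic array already carries the effect, if any, of the transfection. The cells are 1 line, and the labels do not say whether the replicates were separate cultures, so the spread given here measures only the spread between these arrays and may be technical. The arrays were chosen by their labels, and the values are log2 signals of 30927 named genes.

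Hepatoblasts are the bipotent progenitors of the fetal liver. They give rise to hepatocytes, which secrete plasma proteins and run amino acid, bile acid and drug metabolism, and to cholangiocytes, the epithelium of the bile ducts. The transcription factors HNF4A, FOXA and CEBPA hold the hepatic programme, SOX9 marks the biliary branch, and CDX2 is the factor that sets intestinal identity in the gut endoderm. HNF4A is also used by the intestinal epithelium, so several of its known targets are shared between liver and gut.

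The start regions of 3 hepatic and intestinal genes are shown, chosen after the search because they hold matches to the motifs counted below. Afp encodes alpha-fetoprotein, the plasma carrier of fetal hepatocytes, and Muc13 and Krt20 encode a membrane mucin and a keratin of the gut lining. The sequences are RefSeq's, build GRCm38.p6, run 5′ to 3′ on the strand of the gene, and cover 250 bases before to 50 bases after an annotated start. Capitals mark matches to 2 motifs that were searched on both strands, which are the HNF4 motif CAAAGTCCA with at most 1 mismatch and the CDX motif TTTATNG with none.
Afp (chr5:90490464-90490763, plus strand): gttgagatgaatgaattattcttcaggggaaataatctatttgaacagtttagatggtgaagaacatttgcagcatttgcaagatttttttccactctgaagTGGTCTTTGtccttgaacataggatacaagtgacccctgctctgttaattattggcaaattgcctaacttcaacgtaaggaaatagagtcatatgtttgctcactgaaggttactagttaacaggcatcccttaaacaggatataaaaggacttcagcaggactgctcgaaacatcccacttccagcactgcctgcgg
Muc13 (chr16:33794239-33794538, plus strand): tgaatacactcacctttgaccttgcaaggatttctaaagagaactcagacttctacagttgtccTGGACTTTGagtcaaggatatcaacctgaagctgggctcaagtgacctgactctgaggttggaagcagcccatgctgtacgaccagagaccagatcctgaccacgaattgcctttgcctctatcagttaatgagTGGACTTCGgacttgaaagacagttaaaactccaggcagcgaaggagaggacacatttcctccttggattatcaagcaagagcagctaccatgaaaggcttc
Krt20 (chr11:99438104-99438403, minus strand): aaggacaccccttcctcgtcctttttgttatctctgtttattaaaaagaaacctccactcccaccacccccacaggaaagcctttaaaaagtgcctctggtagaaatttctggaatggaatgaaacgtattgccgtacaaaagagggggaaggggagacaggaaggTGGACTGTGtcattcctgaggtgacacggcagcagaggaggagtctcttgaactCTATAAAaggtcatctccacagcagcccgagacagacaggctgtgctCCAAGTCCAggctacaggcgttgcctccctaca

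The windows of Alb, Cdx2, Fgg, Hnf4a, Lgals4, Slco1b2 and Vil1, and that of another annotated start of Muc13, held neither motif and are not shown. The window of Apoa4 held the HNF4 motif and those of Apob and Epcam the CDX motif, and they are not shown either. In the windows shown, Afp had an HNF4 match at -148, counted from the start to the first base of the match. Muc13 had HNF4 matches at -186 and -52. Krt20 had HNF4 matches at -84 and 18, and its CDX match at -30 has the letters CTATAAA, which a TATA box shares. The HNF4 motif was found in 8 of the 22 intestinal genes above background that had a window (36.4%) and in 5 of 13 plasma protein genes above background (38.5%), beside 773 of 9604 genes above background (8.05%) and 9.17% of all 17440 measured genes with a window. Other lists varied, with 4 of 18 liver transcription factor genes above background (22.2%), 1 of 7 hepatocyte metabolism genes (14.3%), 1 of 11 fetal liver genes (9.09%) and 1 of 18 cholangiocyte genes (5.56%). Among members not above background it was in 2 of 12 intestinal, 1 of 11 plasma protein, 4 of 18 hepatocyte metabolism and 2 of 4 cholangiocyte genes. It was also in 1 of 5 fetal liver and 0 of 3 liver transcription factor genes not above background. The CDX motif was in 6 of the same 22 intestinal genes (27.3%), beside 8.24% of the genes above background and 11.3% of all. Other lists above background varied. It was in 2 of 7 hepatocyte metabolism (28.6%), 3 of 13 plasma protein (23.1%) and 2 of 11 fetal liver genes (18.2%). For cholangiocyte genes it was 3 of 18 (16.7%) and for liver transcription factors 2 of 18 (11.1%). Of members not above background, 2 of 12 intestinal, 1 of 11 plasma protein, 1 of 18 hepatocyte metabolism, 1 of 5 fetal liver, 0 of 4 cholangiocyte and 0 of 3 liver transcription factor genes held it. A match is a run of letters and not a binding site, and a window without one says nothing of the factor.

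The deposited files hold no detection calls, so a background was set from genes that liver cells are not known to use. On each array the 95th percentile of 1421 olfactory, vomeronasal and taste receptor genes was taken, which was 5.00, 4.82 and 4.73 in replicates 1 to 3, and a gene above it on all 3 arrays is called above background. This held for 14606 of 30927 genes (47.2%), and 9707 (31.4%) also passed the 99th percentile of the same receptor genes. That stricter level was 6.31, 5.81 and 5.79 in replicates 1 to 3, so a gene could miss it in replicate 1 alone. A gene's level is given below as its mean ± SD over the 3 control mimic arrays (n = 3) and as its percentile among the 30927 genes, of which the highest 25% and the highest 10% are also used as marks. Probes of different genes differ in response, so a percentile places a probe among all probes and does not measure copies of RNA. Rplp0, a ribosomal protein gene used by every cell, was only at percentile 65.3. The control mimic arrays correlated at Pearson's r of 0.987 to 0.988 across genes, which are not independent replicates, and their median signals were 4.95, 4.87 and 4.83. The gene lists counted in this report were chosen with earlier results of these data known. Their counts therefore describe the chosen members and support nothing beyond them.

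The 8 lineage markers were all above the stricter background on all 3 control mimic arrays, but they did not sit at like levels. Lgals4, which encodes a galectin of the gut lining, read 12.43, 12.19 and 12.33 in replicates 1 to 3 (mean 12.31 ± 0.12, percentile 99.8), and Krt19, the keratin of ducts and simple epithelia, read 11.59, 11.56 and 11.44 (percentile 99.4). Epcam, an adhesion molecule of hepatoblasts, ducts and gut, read 10.17, 9.98 and 9.997, and Hnf4a, the nuclear receptor of hepatocyte identity, read 10.25, 9.85 and 10.03, and both stood at percentile 96.6. For these 4 genes the arrays lay within 0.40 of each other. Sox9, the duct and progenitor factor, read 8.35, 9.35 and 8.37 (percentile 89.3), with replicate 2 about a log2 unit above both other arrays. Cdx2, the intestinal factor, read 8.62, 8.84 and 8.45 (mean 8.64 ± 0.20, percentile 88.9). The hepatic secretory markers were the lowest of the 8. Afp read 6.42, 6.995 and 6.21 (mean 6.54 ± 0.41) and Alb read 6.38, 7.39 and 5.85 (mean 6.54 ± 0.78), both at percentile 70.2. Replicate 2 was the highest and replicate 3 the lowest for both, and the range of Alb was 1.53.

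**Figure D1:**
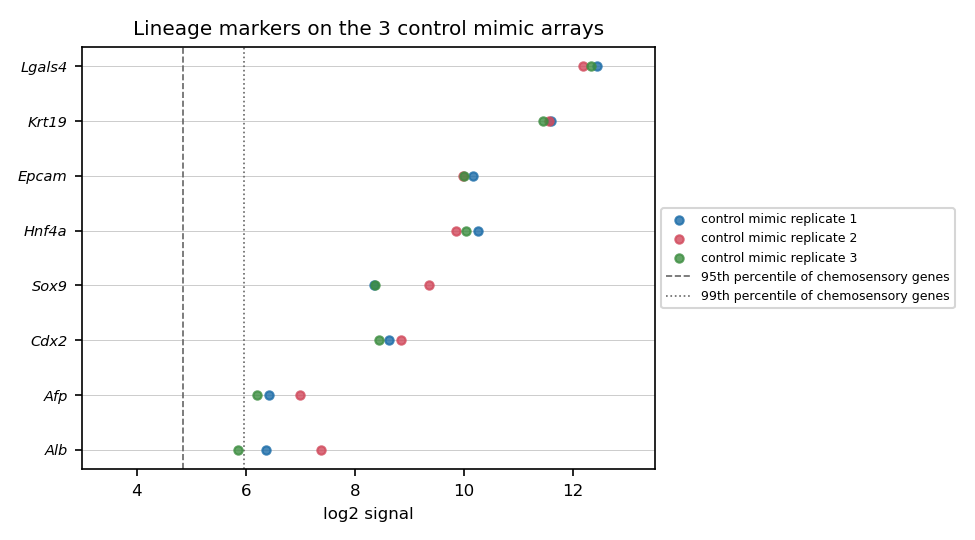
Log2 signal of the 8 lineage markers (rows) on control mimic replicates 1, 2 and 3 (points), with the mean over the arrays of the 95th (dashed) and 99th percentile (dotted) of receptor genes. Lgals4 and Krt19 lie furthest right at 12.31 and 11.53, and Afp and Alb lie furthest left, both at 6.54.

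Genes of the hepatoblast label itself were split. Of 23 hepatoblast and fetal liver genes, 15 were above background and 12 passed the stricter level, beside 47.2% and 31.4% of all genes. Those at the top are widely used in fetal cells, progenitors and cultured lines. Cd81, a tetraspanin, was at 11.88 ± 0.11, and Cd24a, a surface glycoprotein, at 11.25 ± 0.39. Peg3, an imprinted zinc finger gene, was at 11.07 ± 0.21 and Ncam1, an adhesion molecule, at 10.08 ± 0.31. The fetal mRNA-binding proteins Igf2bp2, Igf2bp3 and Igf2bp1 were at percentiles 97.6, 96.2 and 89.0, and Hmga2, a fetal chromatin protein, at percentile 95.8. Met, the receptor of hepatocyte growth factor, read 9.74, 9.64 and 9.92 (percentile 95.5). By contrast 8 of the 23 were not above background, and they include genes by which fetal hepatoblasts are sorted or recognised. Dlk1, a surface protein used to isolate hepatoblasts, read 4.56, 4.81 and 4.75 and exceeded the background on replicate 3 alone. Igf2, the fetal growth factor, read 4.55, 4.50 and 4.13, and Gpc3, a fetal liver glypican, read 3.95, 4.30 and 3.73. Spink3, a trypsin inhibitor, read 3.41, 4.01 and 3.38. Lin28b, a fetal RNA-binding protein, and Mest, an imprinted gene, had means of 4.56 and 4.53, and like the 3 genes before them did not exceed the background on any array. Lgr5, an R-spondin receptor, had a mean of 4.21 and was also under the background on all 3 arrays. H19, the noncoding RNA of the Igf2 locus, was above it at 6.92, 6.59 and 5.70 with replicate 3 lowest. Anpep, an aminopeptidase of hepatoblasts and of the gut brush border, had the largest range in the list, at 8.13, 6.49 and 5.70. Since several defining hepatoblast markers were at background level while gut genes were among the highest, the cells are called here control mimic BMEL cells. In bulk RNA, fewer cells of a kind and less RNA per cell cannot be told apart, so a low level does not say whether all cells or only some express a gene.

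**Figure D2:**
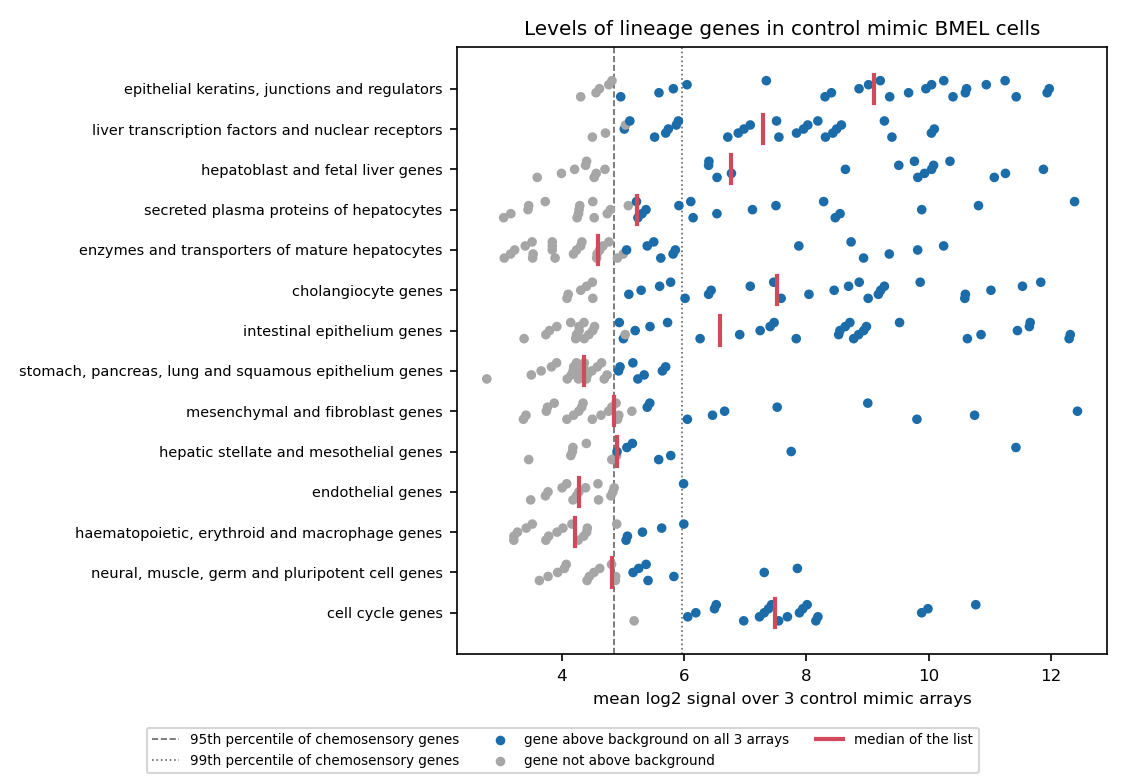
Mean log2 signal over the 3 control mimic arrays (horizontal axis) for each gene (point) of 14 lineage lists (rows), blue where the gene was above background on all 3 arrays and grey where not, with list medians in red and the receptor gene percentiles (mean over the arrays) as vertical lines. Epithelial, liver transcription factor, cholangiocyte and cell cycle genes lie mostly right of both lines, and stomach, pancreas, lung, endothelial and blood genes lie mostly left of the first.

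The transcription factors of the liver were nearly all above background. This held for 25 of 28 measured, and 18 passed the stricter level, beside 47.2% and 31.4% of all genes. The median percentile was 77.3, and no gene of the 25 ranged over 1 or more between the control mimic arrays. Besides Hnf4a the highest were Gata6, an endoderm factor (10.09 ± 0.08), Creb3l3, a membrane-bound factor of liver and gut (9.40 ± 0.07), and Onecut2, a partner of Onecut1 in hepatoblasts (9.28 ± 0.30). Nr1h4, the bile acid receptor FXR, read 8.95, 8.06 and 8.70, and Nr1i2, the xenobiotic receptor PXR, read 8.89, 8.22 and 8.38, with replicate 1 highest for both. Foxa2, a pioneer factor of endoderm, read 7.90, 8.45 and 8.21. These 3 factors stood between percentiles 85.4 and 88.5. Prox1, Hhex and Cebpa, which act early in liver development or in hepatocyte maturation, were at 6.72, 6.98 and 6.89 and ranged over at most 0.65 between arrays. Gata4 at 5.70 ± 0.16, Foxa1 at 5.91 ± 0.20, Foxa3 at 5.87 ± 0.23 and Onecut1 at 5.74 ± 0.20 were above the first background level and not above the stricter one, so their presence rests on the lenient threshold. The 3 factors not above background were Nr1i3, the xenobiotic receptor CAR, at 5.73, 4.83 and 4.58, Nr2f1, an orphan receptor, at 4.69, 4.43 and 4.39, and Klf15, a factor of the fasting response in adult liver, at 4.61, 4.59 and 4.95.

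Plasma protein genes were divided between a few high ones and many at background. Of 30 measured, 16 were above background (53.3%) and 10 passed the stricter level (33.3%), beside 47.2% and 31.4% of all genes. The top 25% of genes held 26.7% of them, so the list as a whole lay near the shares of all genes. Apob, the scaffold protein of lipoproteins made by liver and gut, read 12.45, 12.34 and 12.36 and was among the 50 highest genes of the arrays. Rbp4, the retinol carrier, read 10.77, 10.77 and 10.90, and Trf, transferrin, read 9.93, 10.002 and 9.72. All 3 genes had arrays within 0.28 of each other. Apoa4, a lipoprotein component of the gut, read 8.73, 8.01 and 8.91. C9, a complement component, read 7.82, 8.63 and 8.97, with replicate 1 lowest. Ttr, the thyroxine carrier, read 8.41, 8.60 and 7.84, with replicate 3 lowest. These 3 stood at percentiles 88.2, 87.7 and 86.1. Apoa1, the main protein of HDL, read 7.72, 7.39 and 6.25, with replicate 3 lowest. Clotting and acute phase genes stood at different levels. C3, the central complement component, read 7.17, 7.48 and 7.86 (percentile 79.2) and passed the stricter level. Fgb, a fibrinogen chain gene, read 5.27, 5.44 and 5.24, F10, clotting factor X, read 5.41, 5.13 and 5.60 and Hpx, the haem carrier hemopexin, read 5.83, 6.09 and 5.83, all above the first background level alone. Fga, another fibrinogen chain gene, read 3.89, 3.68 and 3.62, and Fgg, the remaining one, read 3.01, 3.18 and 3.32. F2, prothrombin, read 3.35, 3.41 and 3.62, and none of these 3 exceeded the background on any array. Hamp, hepcidin, and Ahsg, fetuin-A, had means of 3.05 and 4.53. Serpinc1, Plg, Vtn, Kng1, Apoh and Itih3 were likewise under background on all 3 arrays, with means between 3.45 and 4.51.

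Enzymes and transporters of mature hepatocytes were mostly not above background. Of 34 measured, 12 were above background and 6 passed the stricter level, beside 47.2% and 31.4% of all genes, and the median percentile was 44.4. Among those not above background were Cyp7a1, the rate-limiting enzyme of bile acid synthesis, at 3.22, 3.29 and 3.19, and Tat, tyrosine aminotransferase, at 4.04, 3.79 and 3.71. Tdo2, which opens the tryptophan ring, had a mean of 3.40. Slco1b2 and Slc10a1, the uptake carriers for organic anions and bile acids on the blood side of hepatocytes, had means of 3.06 and 4.31, and Abcb11, the bile salt export pump, 3.53. G6pc and Pck1, the enzymes of glucose output, had means of 4.19 and 4.68. The genes that passed the stricter level are used well beyond hepatocytes. Abcc2, an export pump for conjugates in liver and gut, read 10.94, 9.97 and 9.82. Glul, glutamine synthetase, read 9.89, 9.89 and 9.67, with arrays within 0.22 of each other. Fah of tyrosine breakdown was at 8.94 ± 0.31, Asl of the urea cycle at 8.73 ± 0.08, and Fabp1, the fatty acid carrier of liver and gut, at 7.88 ± 1.17. Fabp1 read 8.90, 8.13 and 6.60, so its arrays spread over 2.29 log2 units, with replicate 1 highest. Cps1, the first enzyme of the urea cycle, was above the first background level alone at 5.99, 4.99 and 5.88, and Otc, the next enzyme, at 6.06, 4.48 and 4.48, exceeded it in replicate 1 alone. Cyp2c29, a cytochrome P450 of a family of near-identical copies between which probes may cross-react, read 7.32, 5.09 and 5.16.

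Most of the chosen cholangiocyte genes were above background. Of 30 measured, 24 were above background and 17 passed the stricter level, beside 47.2% and 31.4% of all genes, and the top 25% of genes held 56.7% of them. Anxa4, an annexin of ducts and other epithelia, read 11.91, 11.98 and 11.61. Jag1, the Notch ligand mutated in human Alagille syndrome, read 11.02, 10.88 and 11.16. Cldn4, a tight junction claudin, read 10.31, 11.28 and 10.21, with replicate 2 highest. Tspan8, a tetraspanin of ducts and gut, read 10.72, 10.52 and 10.53, and Sox4, a partner of Sox9 in duct formation, read 9.58, 9.77 and 10.23. All 5 lay at percentile 95.9 or higher. Krt7, the duct keratin, was at 9.22 ± 0.21, Bicc1 and Pkd2, whose loss in mice causes cystic kidneys, at 9.18 ± 0.33 and 9.01 ± 0.11, Notch2 at 8.86 ± 0.12 and Spp1, osteopontin, at 7.59 ± 0.69. Genes of duct transport and secretion stood at different levels. Car2, a carbonic anhydrase, read 8.25, 8.53 and 8.58 (percentile 87.5), and Slc4a2, a chloride and bicarbonate exchanger, was at 8.04 ± 0.14 (percentile 84.1), and both passed the stricter level. Cftr, the chloride channel, read 6.00, 6.49 and 6.84, and Aqp1, a water channel, read 5.55, 6.10 and 5.16. Pkhd1, the fibrocystin gene, read 6.02, 6.38 and 5.65, and all 3 were above the first background level and not the stricter one. Sctr, the secretin receptor, read 4.13, 4.22 and 3.97, Ggt1, a gamma-glutamyl transferase, 4.30, 4.77 and 4.44, and Cldn10 had a mean of 4.09, none above background on any array. Slc10a2, the apical bile acid carrier of ducts and ileum, passed the stricter level at 8.19, 6.65 and 7.56, with replicate 1 highest and replicate 2 lowest.

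Intestinal epithelium genes included some of the highest signals on the arrays. Of 42 measured, 27 were above background and 21 passed the stricter level, beside 47.2% and 31.4% of all genes, and 47.6% were in the top 25%. The highest were mucosal structure genes. Muc13 read 12.35, 12.26 and 12.28 (percentile 99.8) and Krt20 read 11.76, 11.70 and 11.48 (percentile 99.5). Cdh17, the liver-intestine cadherin, read 11.79, 11.66 and 11.53 (percentile 99.5). Alpi, intestinal alkaline phosphatase, read 11.58, 11.11 and 11.67. Lgals2 and Vil1, which encode a galectin and the villin of microvilli, were at 10.86 ± 0.13 and 10.63 ± 0.08. The arrays of each of these 6 genes lay within 0.56 of each other. Several gut factors besides Cdx2 passed the stricter level. Hnf4g, the gut paralog of Hnf4a, read 9.90, 8.84 and 9.83, with replicate 2 lowest. Isx, an intestinal homeobox factor, read 7.85, 7.12 and 7.45. Cdx1, the close relative of Cdx2, was under background on all 3 arrays at 4.29, 4.61 and 4.20. Some genes that handle bile acids in the ileum also passed the stricter level. Fgf15, the hormone that ileal cells send to the liver, read 9.40, 8.28 and 7.97, and Slc51a and Slc51b, the 2 chains of the basolateral bile acid exporter, read 9.18, 8.02 and 8.93 and 9.32, 7.55 and 9.45. Fgf15 was highest in replicate 1 and lowest in replicate 3, while both exporter chains were lowest in replicate 2, with Slc51a highest in replicate 1 and Slc51b in replicate 3. Absorptive and secretory gut functions were patchy. Fabp2, a fatty acid carrier, was at 8.53 ± 0.30, Myo1a, a brush border myosin, at 8.85 ± 0.60, Cubn, a receptor for vitamin B12 complexes, at 8.94 ± 0.91, and Guca2a and Guca2b, which encode guanylins, at 7.41 ± 0.35 and 7.83 ± 0.09. Sis, sucrase-isomaltase, read 7.60, 5.18 and 6.01, with replicate 1 far above the others. Lct (lactase), Slc5a1 (the glucose carrier) and Dpp4 (a brush border peptidase) had means of 4.51, 3.74 and 4.28, all under background. The stem cell genes Olfm4 and Ascl2, the secretory lineage factor Atoh1, the Paneth cell lysozyme Lyz1 and the antimicrobial lectin Reg3g were under background on all 3 arrays, with means of 3.80, 4.28, 4.37, 4.15 and 3.39. The goblet cell mucin Muc2, at 5.78, 5.96 and 5.46, was above the first level and not the stricter one.

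**Figure D3:**
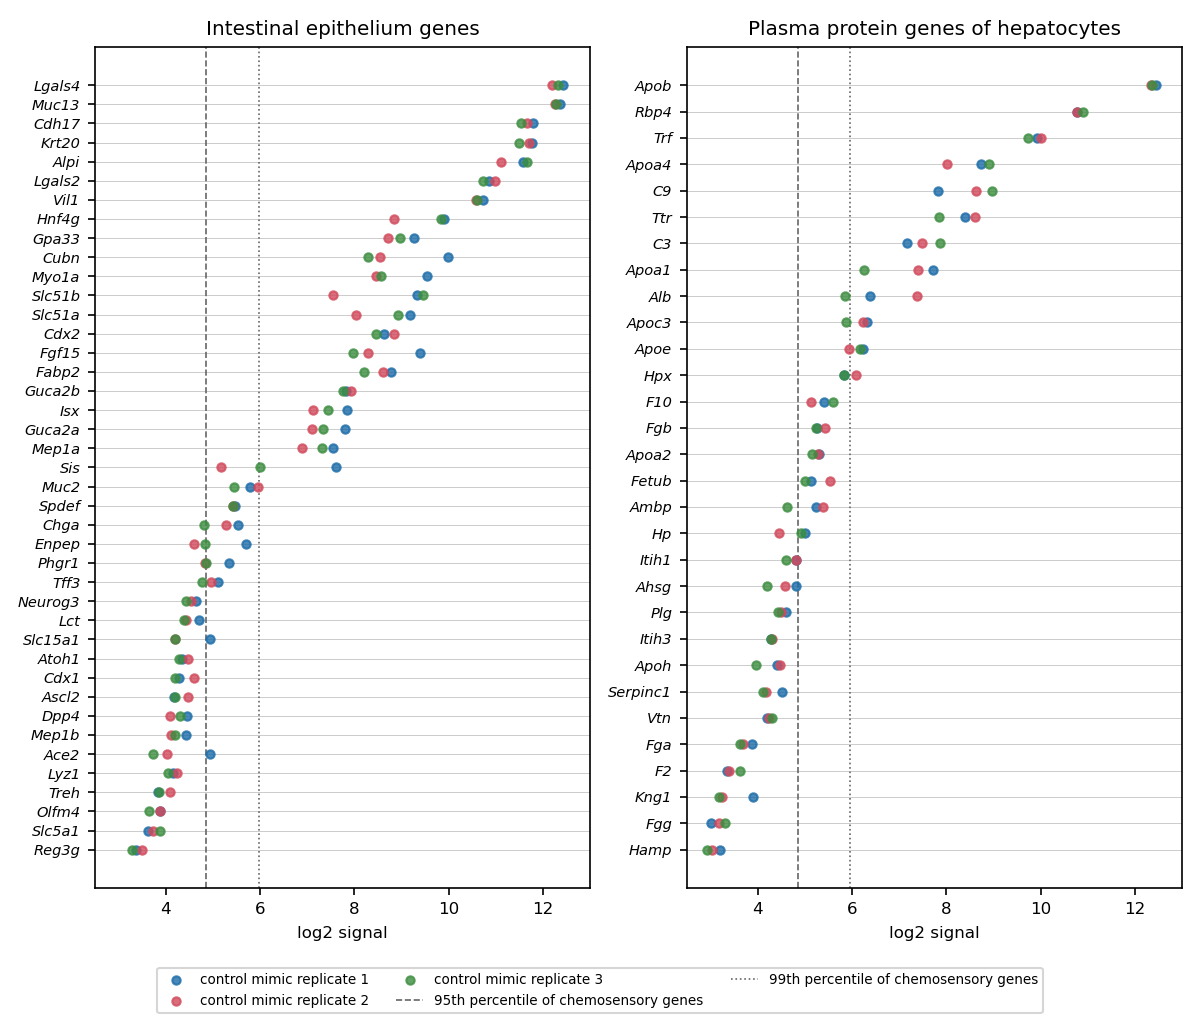
Log2 signal of intestinal epithelium genes (left, all but 1) and of each plasma protein gene (right) on control mimic replicates 1, 2 and 3 (points), ordered by mean, with the mean over the arrays of the 95th (dashed) and 99th percentile (dotted) of receptor genes. The intestinal genes start at 12.31 (Lgals4) and the plasma protein genes at 12.38 (Apob). Above background were 27 of 42 intestinal and 16 of 30 plasma protein genes, beside 47.2% of all genes.

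Genes of other foregut and squamous epithelia were largely at background level. Of 29 genes of stomach, pancreas, lung and squamous epithelium, 7 were above background and 0 passed the stricter level, beside 47.2% and 31.4% of all genes. The highest of them was Ppy, a pancreatic hormone, at 6.25, 5.37 and 5.47, and the factors Sox2, Pdx1, Ptf1a, Nkx2-1 and Trp63, which mark foregut, pancreas, lung and basal cells, had means between 3.66 and 4.40, none above background. A list of squamous envelope genes was written after the highest genes had been seen, because Sprr1a, a cornified envelope precursor, ranked among the 30 highest named genes at 12.65, 12.45 and 12.48. Of its 16 members 7 were above background and 4 passed the stricter level, beside the same shares of all genes. Sprr2b was at 6.72 ± 0.22, Sfn, a 14-3-3 protein, at 7.33 ± 0.35 and Grhl3 at 6.97 ± 1.13, while Sprr3 at 2.96, Krt13 at 4.31, Krt6a at 4.44 and Flg at 4.25 were under background on all 3 arrays.

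Epithelial genes were high on all 3 control mimic arrays. Of 28 epithelial keratin, junction and regulator genes, 23 were above background and 19 passed the stricter level, beside 47.2% and 31.4% of all genes, and the top 25% of genes held 67.9% of them. Krt8 read 11.98, 12.05 and 11.88 and its partner Krt18 11.88, 11.99 and 11.93. Tjp1, a tight junction scaffold, was at 11.43 ± 0.22, Cdh1, E-cadherin, at 11.25 ± 0.12, and the desmosome genes Dsp and Dsg2 at 10.94 ± 0.02 and 10.62 ± 0.03. These 6 genes all stood at percentile 98.2 or higher, and no pair of arrays differed by over 0.44 for any of them. Elf3, an epithelial ETS factor, had the largest spread of the list, at 9.37, 10.25 and 8.47. Cldn4 and Cldn6, claudins, ranged over 1.07 and 1.16. Not all epithelial genes passed, since Grhl2 and Ovol1, factors that keep epithelial identity, were above background on 1 array each, at means of 4.77 and 4.82, and Cldn1 and Cldn7, claudins, on none, at 4.56 and 4.31.

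Mesenchymal genes held a few high members. Of 28 measured, 10 were above background (35.7%) and 7 passed the stricter level (25%), beside 47.2% and 31.4% of all genes. Vim, the intermediate filament of mesenchymal and many cultured cells, was among the 50 highest genes at 12.39, 12.56 and 12.34. Fn1, fibronectin, read 10.78, 10.86 and 10.62, and Sparc, a matrix protein, read 9.81, 10.05 and 9.56. The arrays of each of these 3 lay within 0.49 of each other. Cdh2, N-cadherin, which hepatocytes also use, was at 9.00 ± 0.37, and Zeb1 and Zeb2, repressors of E-cadherin, at 6.66 ± 0.29 and 6.47 ± 0.10. Snai2, a repressor of the same family of targets, read 7.66, 6.04 and 8.87, a range of 2.83 with replicate 3 highest. Dcn (decorin), Lum (lumican), Postn (periostin) and Pdgfra had means of 3.37, 3.75, 3.42 and 3.88, under background on all 3 arrays. Of the fibrillar collagens, Col1a1 was above the first level alone at 5.51, 5.35 and 5.47, and Col1a2 and Col3a1, with means of 4.64 and 4.91, did not pass on all 3 arrays. Snai1 and Twist1 were at 4.89 and 4.93 and did not pass on all 3 arrays.

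Markers of the other cells of fetal liver were near the background share or below it. Of 14 stellate and mesothelial genes 7 were above background and 2 passed the stricter level, beside 47.2% and 31.4% of all genes. The 2 were Msln, mesothelin, at 11.40, 11.43 and 11.46 (percentile 99.3) and Ecm1, a matrix protein, at 7.65, 7.73 and 7.87. Wt1, the factor of mesothelium, read 5.09, 5.37 and 5.01 and, like Upk3b, another mesothelial gene, at 5.78 ± 0.08, was above the first level alone. The stellate cell genes Lrat, Reln and Hgf were under background at means of 4.18, 4.40 and 3.46. Lhx2, Pdpn and Ngfr, of the same list, were above the first level alone at means of 5.59, 5.07 and 4.91. Of 15 endothelial genes 1 was above background, Oit3 at 5.94, 6.07 and 5.97, and 0 passed the stricter level, beside the same shares of all genes. The adhesion proteins Pecam1 and Cdh5 and the sinusoidal scavenger receptor Stab2 had means of 4.28, 4.39 and 4.01. Of 20 blood cell genes 5 were above background (25%) and 0 passed the stricter level. The 5 were Cx3cr1, Csf1r, Tal1, Clec4f and Spi1, with means of 6.00, 5.63, 5.32, 5.08 and 5.05. Ptprc, the leukocyte CD45, Adgre1, the macrophage F4/80, and Alas2, the erythroid enzyme of haem synthesis, had means of 3.22, 3.79 and 4.02. As a yardstick, 7 of 19 neural, muscle, germ and pluripotent cell genes were above the first background level and 2 passed the stricter one, Tnnt2, a cardiac troponin, at 7.92, 8.29 and 7.35 and Prm2, a protamine, at 7.37, 7.37 and 7.20. A call at the first level alone therefore carries little weight for a single gene. Nor does a call at the stricter level settle lineage for a single gene, since Tnnt2 and Prm2, at percentiles 82.4 and 77.5, stood above Alb and Afp, both at 70.2.

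Cell cycle genes were well expressed. Of 20 cell cycle genes 19 were above background and 17 passed the stricter level, beside 47.2% and 31.4% of all genes. Ccnd2, a D cyclin, read 10.74, 10.85 and 10.72, and Ccnd1, another, read 9.86, 10.21 and 9.58. Pcna, the replication clamp, was at 9.99 ± 0.22. Mki67, the marker of dividing cells, read 8.08, 8.86 and 7.53. Birc5, survivin, was the exception, above background on 2 of the arrays at 4.88, 5.81 and 4.87. Replicate 2 was the highest array for 14 of the 19, beside 32.8% of all genes above background, Mki67 and Ccnd1 among them, and the median deviation from the gene's mean was 0.28 in replicate 2, -0.18 in replicate 1 and -0.11 in replicate 3. Of 11 genes of growth arrest, tumour suppression and immortalization, 10 were above background, beside the same 47.2%. Cdkn1a, the p53-induced cell cycle inhibitor, read 11.91, 12.17 and 11.68 (percentile 99.7). Mdm2, which targets p53 for breakdown, and Trp53, the p53 gene, were at 9.72 ± 0.34 and 9.55 ± 0.05. Rb1, a tumour suppressor, was at 10.01 ± 0.22, Myc at 9.87 ± 0.46 and Tert, the telomerase subunit, at 6.76 ± 0.31, while Cdkn2a, which encodes p16 and p19ARF, was above the first background level alone at 5.17, 5.57 and 5.41.

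The 30 highest named genes were led by genes that every cell uses. Of 9 housekeeping genes all were above background and 8 passed the stricter level, beside 47.2% and 31.4% of all genes. Gapdh, a glycolytic enzyme, read 13.32, 13.30 and 13.32, and Eef1a1, a translation factor, read 12.77, 12.77 and 12.76. Scd2, a stearoyl-CoA desaturase, was at 12.89 ± 0.19, Ftl1 and Fth1, the ferritin chains, at 12.45 ± 0.04 and 12.37 ± 0.07, and Malat1, a nuclear noncoding RNA, at 12.40 ± 0.07. Apob, Lgals4, Muc13, Vim and Sprr1a, given above, were among them, with Tm4sf4, a tetraspan protein of liver and gut, at 12.28 ± 0.02 and Nedd4, a ubiquitin ligase, at 12.35 ± 0.04. Genes of hypoxia and glycolysis were also there, namely Ero1l, an oxidase of the endoplasmic reticulum, at 12.46 ± 0.17, Ndrg1 at 12.37 ± 0.18, Pkm, pyruvate kinase, at 12.25 ± 0.12 and Pgk1, phosphoglycerate kinase, at 12.22 ± 0.06. In a list of 20 hypoxia inducible and glycolytic genes, written after these values were seen, 19 were above background and 17 passed the stricter level, beside the same shares, a count that the choice of members fixes in part. Slc2a1, the glucose carrier GLUT1, was at 12.06 ± 0.17, Egln3, an oxygen sensor, at 11.79 ± 0.50 and Vegfa at 11.29 ± 0.23, while Car9, a carbonic anhydrase induced by low oxygen, was under background at 4.30, 3.91 and 4.05. Of the 100 highest genes, 50 were passed over by the naming rule (predicted genes, unnamed loci, small RNAs and the like), and these 50 include 16 mitochondrial transcripts. Cytosolic ribosomal protein genes made up 7 of the 100. The 10 most even of the genes in the top 10% included Suds3, a corepressor subunit, Mff, a mitochondrial fission factor, Actr2, an actin nucleator subunit, Rhoa, a small GTPase, and Papola, the poly(A) polymerase, all with ranges of at most 0.019. Xist and 4 Y-linked genes were read as a check of the sex chromosomes, and 0 of these 5 was above background, with Xist at 4.49, 4.35 and 4.61 and the others at means between 3.17 and 3.36.

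Replicates differed little for most genes. The median SD of genes above background was 0.177, and 90% of them lay between 0.044 and 0.485. A range of 1 or more, which is a 2-fold difference between the highest and the lowest control mimic array, was found for 570 of 14606 genes (3.9%), and a range of 2 or more for 51. By level, the share was 0.846% between percentiles 50 and 60 and 5.65%, 5.53%, 3.49% and 3.17% in the 4 bins above it. The lowest bin lies next to the background level. Genes with any array under that level are left out, which limits the ranges there, so its share cannot be set against the others. Replicate 2 lay apart from the other arrays for 298 of the 570 (52.3%), above them for 182 and below them for 116, while replicate 1 lay apart for 127 and replicate 3 for 145. Without replicate 2 the count was 167, without replicate 1 it was 359 and without replicate 3 it was 272.

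Secreted signals were prominent among the 15 largest ranges. Cxcl1, a neutrophil attracting chemokine, read 5.28, 9.57 and 6.32 in replicates 1 to 3, and Cxcl5, another, read 5.44, 9.30 and 8.56. Ccl2, which attracts monocytes, read 5.04, 9.28 and 6.60. Ccl20, a chemokine of mucosal epithelia, read 7.31, 10.39 and 9.14, and Csf1, the macrophage growth factor, read 6.43, 9.48 and 7.56. Replicate 2 was highest and replicate 1 lowest for all 5. Adm, adrenomedullin, read 7.42, 9.53 and 5.76, with replicate 2 highest and replicate 3 lowest, as did Arrdc3, an arrestin domain protein, with 7.10, 9.39 and 6.48. Hspa1a, a heat shock HSP70 gene, read 5.57, 9.78 and 5.69, and Hspa1b, a near-identical copy whose probes may share its signal, read 6.61, 10.55 and 7.02, so replicate 2 alone was high. Other genes had another pattern. Prl2a1, a member of the prolactin family with close copies, read 5.08, 6.39 and 9.09 with replicate 3 highest. Snai2, given above, was also highest there, but the array that lay apart was replicate 2, below the others. Cyp2c55, a cytochrome P450 of gut and liver with near-identical copies, read 12.16, 9.06 and 9.58, and Clec2h, a lectin of a family of close copies, read 9.19, 6.42 and 7.08, both with replicate 1 high. Clca2, a chloride channel regulator, read 5.26, 8.10 and 8.04 and was low in replicate 1 alone.

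**Figure D4:**
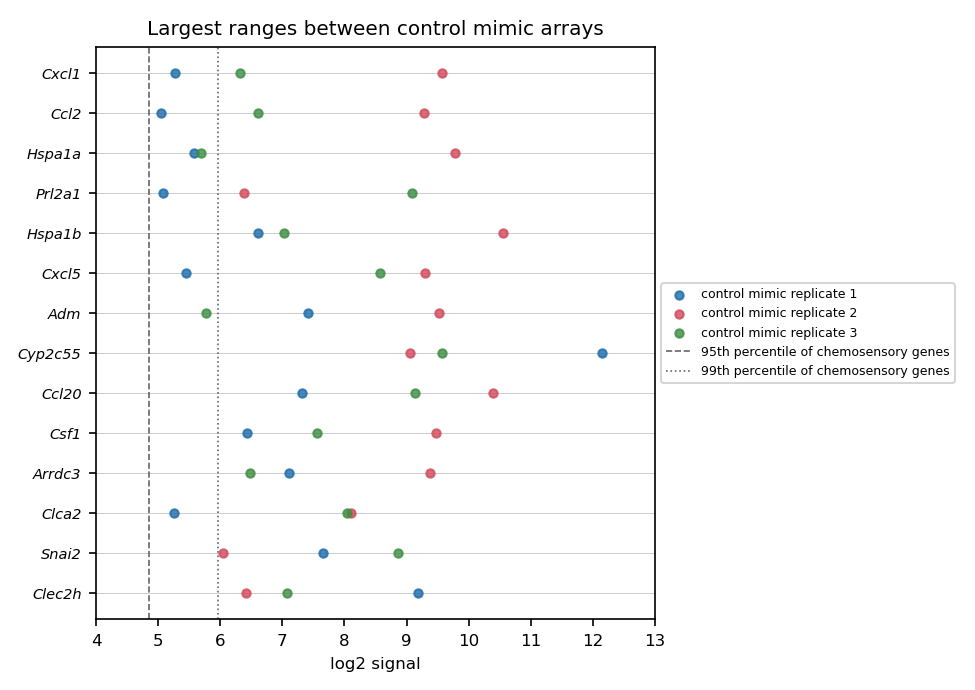
Log2 signal of all but 1 of the 15 genes above background with the largest range between control mimic replicates 1, 2 and 3 (points), ordered by range from the top, with the mean over the arrays of the 95th (dashed) and 99th percentile (dotted) of receptor genes. The top gene, Cxcl1, spans 5.28 to 9.57, and replicate 2 is the highest array for 11 of the 15.

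After the largest ranges had been seen, 6 lists were written, so their counts describe what was picked and support nothing. Apart from the squamous list, given above, they served to see which functions these differences touched. Of 22 chemokine, cytokine and NF-kB feedback genes 17 were above background, and 11 of the 17 had a range of 1 or more, beside 3.9% of all genes above background. Replicate 2 was highest for 15 of the 17, beside 32.8%, and its median deviation was 1.15, against -0.55 in replicate 1 and -0.33 in replicate 3. Nfkbia, the inhibitor of NF-kB that NF-kB itself induces, read 8.68, 11.14 and 9.42, and Tnfaip3, a feedback ubiquitin enzyme, read 7.76, 10.35 and 8.26. The NF-kB subunit genes Nfkb1, Nfkb2 and Relb ranged over 0.55, 0.38 and 0.36, and Il6 and Il1a were under background with means of 3.03 and 3.70. Csf2, a growth factor of granulocytes and macrophages, read 4.64, 7.74 and 5.54 and is not among the 17, since replicate 1 was under background. Of 18 immediate early genes all were above background and 7 ranged over 1 or more. Jun, an AP-1 subunit, read 7.93, 9.93 and 8.17, and Dusp1, a phosphatase of MAP kinases, read 9.50, 10.60 and 8.69, whereas Fos, another AP-1 subunit, and Egr1 ranged over 0.19 and 0.19. Replicate 2 was highest for 11 of the 18. Of 19 hypoxia and glycolysis genes above background replicate 2 was highest for 17 and 4 ranged over 1 or more, with Ddit4, an inhibitor of mTORC1, at 8.81, 10.06 and 8.59 and Pfkfb3, a regulator of glycolysis, at 8.08, 9.56 and 7.42. Of 13 heat shock genes above background replicate 2 was highest for 9, but apart from Hspa1a and Hspa1b none ranged over more than 0.79 (Hsph1), and Dnajb1, Hsp90aa1 and Bag3, which encode chaperones and their partners, ranged over 0.43, 0.33 and 0.06.

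Replicate 1 stood out in another set. It was the highest array for 15 of 19 drug and retinoid metabolism genes above background and for 20 of 27 intestinal genes, beside 26.7% of all genes above background. Of the 19, 10 had a range of 1 or more. Ces2a, a carboxylesterase with close copies, read 11.01, 8.80 and 10.12, and Aldh1a1, an enzyme of retinoic acid synthesis, read 10.15, 9.05 and 8.03. Gsta1, a glutathione transferase with close copies, read 11.47, 11.30 and 10.33, and Nqo1, a quinone reductase, read 7.33, 7.68 and 5.64 and was highest in replicate 2. These differ in which array was low, replicate 2 for Ces2a and replicate 3 for the other 3. Among the intestinal genes 7 of 27 ranged over 1 or more, and in each of them replicate 1 was above replicate 2. The median deviations of the 27 were 0.24 in replicate 1, -0.17 in replicate 2 and -0.08 in replicate 3, and those of the 19 drug and retinoid genes 0.44, -0.17 and -0.24. Replicate 3 was the highest array for 40.5% of all genes above background, but for at most 4 members of any of the 6 added lists.

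**Figure D5:**
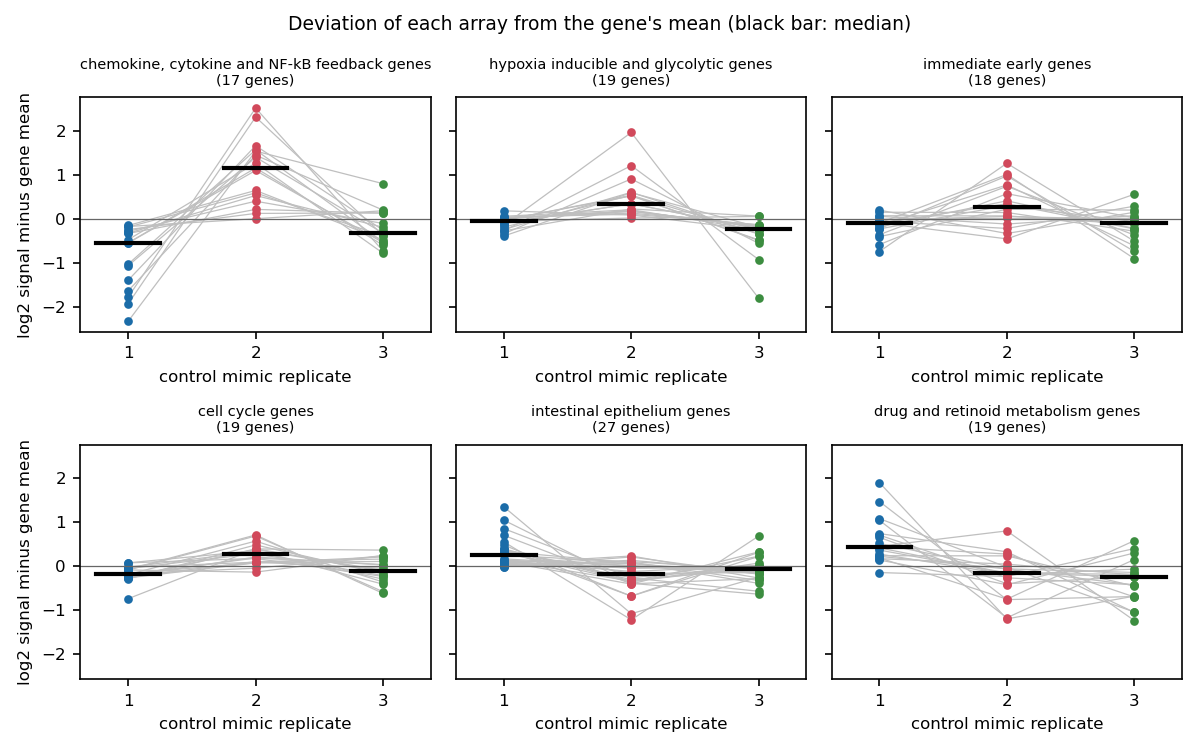
Log2 signal minus the gene's mean over the 3 control mimic arrays (vertical axis) by replicate (horizontal axis), for the genes above background of 6 lists (panels), with a line per gene and the median as a black bar. Replicate 2 is the high array for chemokine and NF-kB feedback genes (median 1.15) and replicate 1 for drug and retinoid metabolism genes (median 0.44).

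The miR-337-3p mimic arrays carry the same replicate numbers, and the same measure of spread was taken in them without comparing levels. Of the 570 genes with a control range of 1 or more, 237 (41.6%) also had a range of 1 or more among the miR-337-3p mimic arrays, which is 35.7% of the 663 genes (4.54%) with such a range there. The array of the same number was the highest in both groups for 434 of the 570 (76.1%), beside 58.3% of all genes above background. By array, replicate 2 was the highest in both groups for 199 of the 247 genes in which it was highest on the control mimic arrays (80.6%), replicate 3 for 174 of 195 (89.2%) and replicate 1 for 61 of 128 (47.7%), beside 51.6%, 68.4% and 51.3% of all genes above background with the same control mimic array highest. The recurrence differed between the lists. The same number was highest in both groups for 18 of 19 hypoxia and glycolysis genes, 14 of 17 chemokine and NF-kB feedback genes, 13 of 18 immediate early genes and 9 of 13 heat shock genes, but for 6 of 27 intestinal, 5 of 19 drug and retinoid metabolism and 2 of 19 cell cycle genes. Other lists varied too, with 13 of 16 plasma protein, 6 of 7 other foregut and squamous and 15 of 24 cholangiocyte genes. It was 12 of 25 liver transcription factor, 5 of 12 hepatocyte metabolism and 0 of 5 blood cell genes. The labels do not say that a replicate number marks a shared culture, day or batch, and the cause was not tested.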

How the data were processed

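Gene expression was measured on 6 Affymetrix arrays, and the 3 control mimic arrays were described. The authors deposited 1 log2 signal per transcript cluster and array (41345 rows). Neither the array design nor the normalization is given in the sources at hand, and the values were used as deposited and taken as normalized. Symbols came from the authors' deposited comparison table, which joined 34471 of its 34472 rows. Rows with no symbol (2003) or a symbol turned into a date (15) were left out, and 32453 rows named 30927 genes. For the 909 genes with several rows, the one highest on average on the control mimic arrays stands for the gene. Of the symbols, 25464 are current in RefSeq's GRCm38.p6 annotation, 1325 match through a synonym and 4138 had no match and keep the file's spelling. Promoter windows were found for 17440 genes.

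The background was the 95th percentile of 1421 olfactory, vomeronasal and taste receptor genes (Olfr, Vmn1r, Vmn2r, Tas2r) on each array, with the 99th percentile as the stricter level. No test was run, since the arrays are 1 group and levels were not set against the miR-337-3p mimic arrays, which were used only for their ranges and for which replicate was highest or lowest. Ranges, SDs and counts are descriptions, and the number of arrays limits the precision. Array files give no counts, so no depth applies, and 0 columns of samples outside these 6 arrays were used.

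The members and the 18 gene lists were chosen with earlier results of these data known, and 6 more lists were written after the largest ranges were seen. In 10 cases a list symbol was not listed in the table used here (Serpina1a, Ass1, Hba-a1, Actb, Rpl13a, Cxcl2, Aldoa, Eno1, Cyp3a25 and Sprr2a1). Genes were named from these lists by level, and beyond them the 30 highest, the 15 with the largest and the 10 with the smallest ranges, passing over predicted genes, unnamed loci, receptor families, small RNAs, clones, pseudogenes and mitochondrial genes. Alternatives were the stricter level, other background genes, quantile normalization, the mean of a gene's rows, ranks over genes above background and leaving out each array. Some genes and 1 planned motif are not reported here. The counting steps were checked on simulated data. Tools were Python 3.11.15, pandas 2.3.3, numpy 2.4.6, scipy 1.17.1 and matplotlib 3.10.9.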

Additional observations from a re-analysis of the deposited data

Results flagged for a closer look

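A further 6874 transcript clusters of the arrays have a signal but no entry in the authors' comparison table, so they carry no gene name here and enter no list. Of these, 3455 (50.3%) were above background on each of the 3 control mimic arrays, beside 47.2% of named genes, and 776 exceeded the level that bounds the top 10% of named genes. They drew attention because they show signal in rows that no comparison used. What they measure was not tested.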

How the results depend on the processing

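With the 99th percentile of receptor genes as the background, 9707 genes were above it in place of 14606, with 10 plasma protein and 6 hepatocyte metabolism genes in place of 16 and 12, and 356 genes ranged over 1 or more in place of 570. With no background filter 871 genes did so. Leaving out 1 control mimic array at a time gave 167 to 359 such genes, the lowest without replicate 2, which is also fewer because a range over fewer arrays is smaller. The count of genes above background lay between 14590 and 15574 under the other alternatives. Of all values recomputed, 294 kept within the spread or within 1.5 times the count and 43 did not. Ranking over genes above background only moved the median percentile of all 14 lists beyond the replicate SD, since it leaves out the members not above background, to between 7.09 and 91.0, with 57.0 for liver transcription factors in place of 77.3, 16.3 for stellate and mesothelial genes in place of 50.3 and 12.0 for neural, muscle, germ and pluripotent cell genes in place of 48.8. Under the other settings a list's median percentile stayed within the replicate SD in 69 of 84 cases and shifted by at most 5.29 percentile points. Centring the arrays or quantile normalization left replicate 2 apart for 292 and 295 of the wide-ranging genes, in place of 298. These settings, the mean of a gene's rows, and the restriction to genes above background on all 6 arrays put the same number highest in both groups for 404 to 436 genes, in place of 434. The number of wide-ranging genes differed too. The 404 were of 507 genes above background on all 6 arrays (79.7%), and centring gave 427 of 592. The main setting gave 434 of 570 (76.1%). Of the recomputed values 125 belong to alternatives chosen after seeing the data, which are all those of the top 25%, of the highest replicate in a list and of the same number, quantile normalization of the list medians, the other backgrounds and the centring for the count of wide ranges, and the mean of a gene's rows for replicate 2. No paired analysis was possible because the results come from no test and the levels of the groups were not compared. With no detection calls, a low signal and no expression cannot be told apart.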
